A study of Homo sapiens with 6 samples.

Results

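The regions described here are N-Myc peaks that lay in typical enhancers of CHP-134 cells and that JMJD6 did not share. Chromatin immunoprecipitation followed by sequencing (ChIP-seq) had been carried out in this human neuroblastoma line with antibodies against N-Myc and against JMJD6, with 3 replicates per antibody. The cells were untreated apart from cross-linking, which was formaldehyde alone for N-Myc and disuccinimidyl glutarate followed by formaldehyde for JMJD6. A single cell line limits every value below, and CHP-134 carries amplified copies of MYCN, the gene for N-Myc. The lists hold the positions of peaks found in every replicate, without heights, scores or read counts, and they therefore give neither the reads behind a peak nor the spread between replicates.

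Members were chosen by position. Of 10172 N-Myc peaks, 9931 were absent from the list of peaks shared with JMJD6, and 9804 of those were on autosomes. A peak was selected on overlap of at least 1 bp with a listed typical enhancer, provided that it met no listed super-enhancer and no listed promoter, which is 1 kb on each side of a RefSeq start site. This left 2563 peaks, 26.1% of the autosomal N-Myc-only peaks (95% exact interval 25.27 to 27.02%). They lay in 2235 of the 4649 listed typical enhancers. That list holds only typical enhancers bound by N-Myc, so the unbound ones are not counted. The other N-Myc-only autosomal peaks served for comparison: 3501 met a promoter, 292 met a super-enhancer and no promoter, and 3448 met none of the listed regions. Every interval given is a 95% one from the exact binomial method, which covers only the counting error over listed peaks, and coordinates are on GRCh37, counted from 1.

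N-Myc binds DNA as a dimer with MAX, through basic helix-loop-helix leucine zipper domains that contact the E-box, a hexamer with the pattern CANNTG. The palindrome CACGTG is the canonical E-box of the MYC family, while other hexamers of the pattern are known as sites of tissue-specific basic helix-loop-helix factors such as the sympathoadrenal regulator HAND2. Typical enhancers are stretches of chromatin with acetylated histone H3 lysine 27 that fall short of the signal of super-enhancers. In neuroblastoma with amplified MYCN, N-Myc is known to occupy enhancers in addition to the promoters of its growth targets.

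The stretches with the most canonical E-boxes come first, because they show what a dense site looked like. They come from the reference sequence, are given on the plus strand, and have each CACGTG in capitals. The names are the nearest genes in the enhancer list.
SUN1/HEATR2, chr7:807794-807993: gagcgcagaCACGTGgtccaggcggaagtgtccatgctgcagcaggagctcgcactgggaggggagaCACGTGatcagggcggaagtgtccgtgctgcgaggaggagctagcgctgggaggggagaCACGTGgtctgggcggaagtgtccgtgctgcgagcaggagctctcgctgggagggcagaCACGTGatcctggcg
PLA2G1B/SIRT4, chr12:120755466-120755665: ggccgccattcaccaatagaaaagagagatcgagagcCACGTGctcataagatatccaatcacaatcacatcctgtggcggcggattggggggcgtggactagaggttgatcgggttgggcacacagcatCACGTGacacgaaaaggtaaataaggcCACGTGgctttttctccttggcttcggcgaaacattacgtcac

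Most of the peaks held no CACGTG and held other E-boxes instead. The next stretches were taken from peaks whose enhancer is named for genes of the sympathetic and neuronal programme, and they show the other hexamers. Capitals mark CACGTG, the hexamer CAGATG (read as CATCTG on the other strand), the hexamer CACATG (there read as CATGTG), the palindrome CAGCTG and the palindrome CATATG.
SLC6A2, chr16:55696569-55696728: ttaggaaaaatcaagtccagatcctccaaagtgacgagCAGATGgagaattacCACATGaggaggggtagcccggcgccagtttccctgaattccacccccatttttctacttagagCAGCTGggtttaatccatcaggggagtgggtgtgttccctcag
TH, chr11:2212068-2212227: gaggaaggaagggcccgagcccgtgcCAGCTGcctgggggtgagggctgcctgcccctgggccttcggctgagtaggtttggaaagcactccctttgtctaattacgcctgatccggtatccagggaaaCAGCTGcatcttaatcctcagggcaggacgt
SCG3, chr15:51959827-51959986: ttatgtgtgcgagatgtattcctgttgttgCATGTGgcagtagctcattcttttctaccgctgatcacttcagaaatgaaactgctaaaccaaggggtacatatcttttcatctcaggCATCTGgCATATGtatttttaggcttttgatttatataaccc
NTRK3, chr15:88978946-88979105: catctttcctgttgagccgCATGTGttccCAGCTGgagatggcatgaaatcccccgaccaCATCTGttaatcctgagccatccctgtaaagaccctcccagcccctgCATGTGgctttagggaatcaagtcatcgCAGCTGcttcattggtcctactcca
ALK, chr2:30012941-30013100: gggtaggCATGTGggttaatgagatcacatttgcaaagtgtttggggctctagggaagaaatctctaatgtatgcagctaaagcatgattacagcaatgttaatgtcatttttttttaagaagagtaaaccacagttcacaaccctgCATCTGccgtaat
NGFR, chr17:47592595-47592754: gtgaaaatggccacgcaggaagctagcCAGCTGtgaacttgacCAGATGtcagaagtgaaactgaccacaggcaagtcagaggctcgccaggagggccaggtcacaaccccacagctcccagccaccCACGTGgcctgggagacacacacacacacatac
SATB1, chr3:18412318-18412477: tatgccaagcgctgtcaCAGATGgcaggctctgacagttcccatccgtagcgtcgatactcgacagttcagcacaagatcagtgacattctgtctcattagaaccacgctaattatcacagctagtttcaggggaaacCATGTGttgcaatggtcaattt
PBX3, chr9:128591134-128591293: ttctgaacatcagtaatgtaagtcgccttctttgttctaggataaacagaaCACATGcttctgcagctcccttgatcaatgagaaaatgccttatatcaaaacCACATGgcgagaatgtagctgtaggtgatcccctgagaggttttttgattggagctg
ELAVL3, chr19:11589620-11589779: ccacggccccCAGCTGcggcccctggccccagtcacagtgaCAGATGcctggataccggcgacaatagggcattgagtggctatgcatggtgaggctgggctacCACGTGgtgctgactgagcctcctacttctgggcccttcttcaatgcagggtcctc
EFNA5, chr5:107008492-107008651: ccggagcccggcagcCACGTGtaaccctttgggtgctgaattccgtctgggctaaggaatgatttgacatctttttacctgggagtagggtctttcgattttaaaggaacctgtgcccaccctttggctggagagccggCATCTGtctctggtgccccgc

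The SLC6A2 stretch lies in an intron of the gene for the noradrenaline transporter and held CAGATG once, CACATG once and CAGCTG once. The TH stretch is intergenic, beside the gene for tyrosine hydroxylase, the rate-limiting enzyme of catecholamine synthesis, and held CAGCTG in 2 places. The whole TH peak also held CACGTG in 2 places. The NTRK3 stretch, near the gene for the neurotrophin-3 receptor, held 5 sites of 3 different hexamers and no CACGTG. The ALK stretch lies in an intron of the receptor tyrosine kinase gene and held CACATG and CAGATG. The SATB1 and PBX3 stretches are also intronic and held only CAGATG or CACATG sites. CACGTG was present in the NGFR, ELAVL3 and EFNA5 stretches, each time with CAGATG, and in the NGFR and ELAVL3 stretches with CAGCTG as well. The SCG3 stretch, intergenic, held CAGATG, then CACATG and CATATG once each.

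The peaks were narrow. Their widths ran from 197 to 2078 bp with a median of 467 bp and quartiles of 374 and 612 bp. The median was 450 bp for promoter peaks, 505 bp for super-enhancer peaks and 363 bp for peaks outside the listed regions. Within 100 bp of the centre, a window of 201 bp, the median GC content was 50.2%. It was 59.2% at promoter peaks, 48.8% at super-enhancer peaks, 50.2% at peaks outside the listed regions, and 44.8% in windows placed 2 kb downstream of the members. The windows were used as each peak's own local control. A window was dropped if it met an N-Myc peak or an assembly gap, and 2519 pairs remained.

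The canonical E-box was concentrated in the peaks. CACGTG was present in 509 of the 2519 paired peaks (20.2%) and in 50 of their windows (1.98%). It was in the peak but not in the window of 498 pairs and in the window but not in the peak of 39, a ratio of 12.8 (exact McNemar test, adjusted p = 1.69e-101 over the 10 hexamers). The window lay inside the same listed enhancer in 866 pairs. There the counts were 188 against 12, a ratio of 15.7. These pairs are part of the 2519, and the ratios were not tested against each other.

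Among the 10 hexamers of the CANNTG pattern, 5 were more frequent in the peaks than in the windows, 2 were less frequent and 3 did not pass the test. CAGATG was in 994 peaks (39.5%) and 323 windows (12.8%), with a ratio of pairs of 4.39 (exact McNemar test, adjusted p = 5.17e-100). CACATG was in 905 peaks (35.9%) and 347 windows (13.8%), with a ratio of 3.56. The palindrome CAGCTG was in 607 peaks (24.1%) and 229 windows (9.09%), with a ratio of 3.14. CATATG was the weakest of the 5, with 245 peaks (9.73%), 127 windows (5.04%) and a ratio of 2.05. CAGATG and CACATG were thus found in more peaks than CACGTG, while the ratio was highest for CACGTG. A hexamer that is no palindrome can be met in either orientation, so shares of different hexamers are not directly comparable.

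CAAGTG was less frequent in the peaks, in 217 against 313 windows (adjusted p = 2.47e-05, exact McNemar test), as was CACCTG, in 359 against 431 (adjusted p = 0.00908). CAAATG was in 353 peaks and 368 windows, CAACTG in 229 and 209, and CAATTG in 61 and 67. None of these 3 differences passed. With windows inside the same enhancer, the 5 higher hexamers passed again and neither of the lower hexamers did. CAAGTG then stood at 75 against 103 (exact McNemar test, adjusted p = 0.0541) and CACCTG at 137 against 138.

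**Figure D1:**
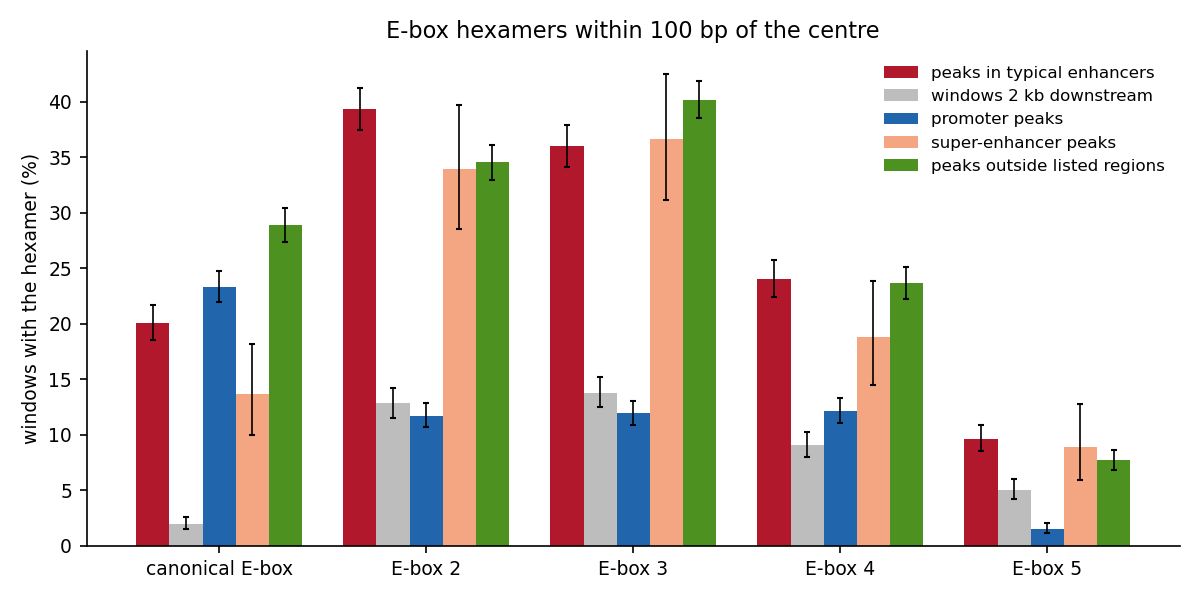
Share of 201-bp windows with each of the 5 leading E-box hexamers (vertical axis, percent) in 5 sets of sequences, with exact 95% intervals as bars; the canonical E-box is CACGTG, and E-box 2 is CAGATG, E-box 3 is CACATG, E-box 4 is CAGCTG and E-box 5 is CATATG. The 2563 peaks in typical enhancers stood above promoter peaks for E-boxes 2 to 5 (39.3% against 11.7% for E-box 2) and below them for the canonical E-box (20.1% against 23.3%).

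The 5 hexamers piled up at the peak centre, which is the midpoint of the listed interval and not a measured summit. They were picked for an excess within 100 bp of these same centres, so a rise there was in part fixed by the choice. Within 50 bp of the centre CACGTG occurred at 1.39 sites per kb of sequence and between 400 and 500 bp away at 0.135 sites per kb, a ratio of 10.3. The ratio was 3.99 for CACATG, 3.40 for CAGATG, 2.60 for CAGCTG and 2.27 for CATATG. At promoter peaks the ratio was 8.50 for CACGTG, 2.62 for CACATG and 1.48 for CAGATG. Peaks outside the listed regions had 16.5 for CACGTG, 4.87 for CACATG and 3.23 for CAGATG. In members the ratio of CAAATG, whose difference between peaks and windows did not pass, was 0.912. The homeodomain motif TAATTA had a ratio of 1.13 and the GATA motif AGATAA a ratio of 0.883, so neither rose towards the centre by much. These ratios are a description and were not tested.

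**Figure D2:**
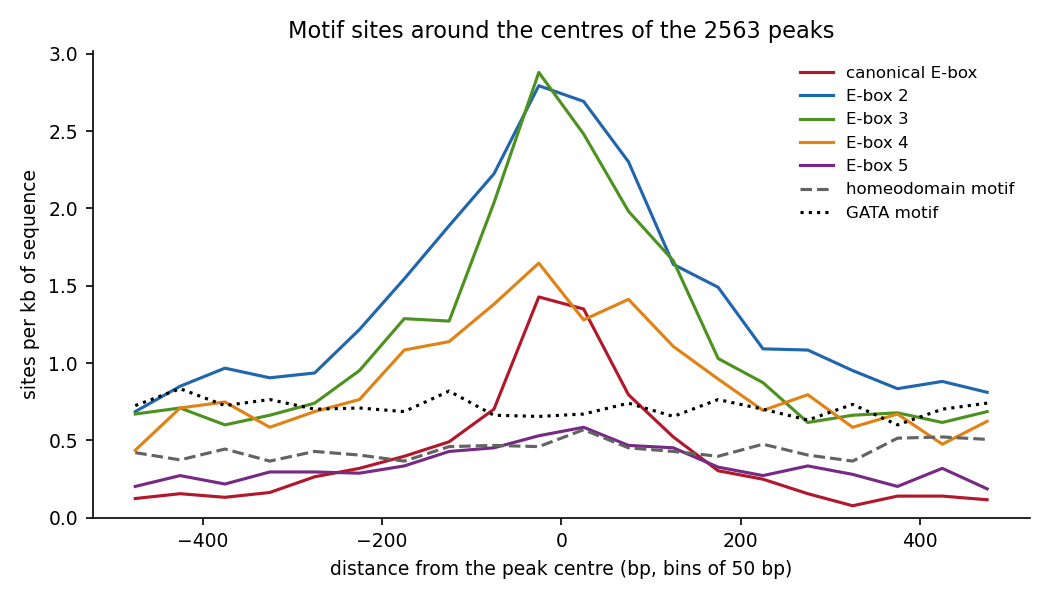
Sites per kb of sequence (vertical axis) in 50-bp bins around the centres of the 2563 peaks (horizontal axis, bp from the centre) for the 5 leading E-box hexamers, numbered as before, and for a homeodomain and a GATA motif. The E-boxes rise at the centre, CACGTG from 0.135 to 1.39 sites per kb, while the GATA motif is at 0.663 sites per kb at the centre and 0.751 at the edge. The 5 hexamers were picked for an excess within 100 bp of these centres.

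At least 1 of the 5 hexamers was present in 2082 of the 2563 peaks (81.2%, 79.7 to 82.7%) and in 36.6% of the windows. The 5 were picked because they were higher in these peaks than in these windows. An excess of their combined shares over the windows was therefore fixed by the choice. For promoter peaks the share was 47.7% (46.0 to 49.4%), for super-enhancer peaks 76.0% (70.7 to 80.8%) and for peaks outside the listed regions 82.1% (80.8 to 83.3%). CACGTG accompanied by another of the 5 was present in 303 peaks (11.8%), CACGTG without the others in 212 (8.27%), and another of the 5 without CACGTG in 1567 (61.1%). That last group held 24.4% of promoter peaks, 62.3% of super-enhancer peaks and 53.2% of peaks outside the listed regions. Different hexamers of the 5 occurred together in 1003 peaks (39.1%) and in 5.68% of the windows. Among peaks outside the listed regions this share was 42.2%. The number of CANNTG sites of any kind had a mean of 2.06 per peak window and 1.08 per downstream window. No CANNTG site lay within 100 bp of the centre of the remaining 294 peaks, since 2269 (88.5%) held at least 1. Of the downstream windows 65.8% held at least 1 CANNTG site, a comparison that rests on no choice among the hexamers.

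Peaks with and without CACGTG differed in the other motifs. Of 29 motifs compared between the 515 members with CACGTG and the 2048 without it, 4 were less frequent beside CACGTG and none was more frequent (Fisher's exact test, adjusted p under 0.05). CACATG was in 20.6% of the peaks with CACGTG and in 39.8% of those without (odds ratio 0.391, exact p = 1.44e-15 after adjustment). CAGATG was in 31.7% and 41.3% (odds ratio 0.659, adjusted p = 0.000948 by the same exact test). CATATG and the GATA motif were also lower, with odds ratios of 0.565 and 0.621. Both kinds of site were counted in the same 201 bp, and the part of this in the difference was not tested. The count of 4 depended on the processing and fell to 1 or 2 in 4 of the alternatives.

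The bases around CACGTG were not uniform. Of the 537 CACGTG sites within 100 bp of a member's centre, 126 (23.5%) read CCACGTGC on either strand and 106 (19.7%) were the longer palindrome CCACGTGG. At promoter peaks these made up 172 (19.4%) and 167 (18.8%) of 888 sites. Among peaks outside the listed regions the order was turned, with 190 (18.1%) and 246 (23.4%) of 1052 sites.

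Compared with the other N-Myc-only peaks, members held the canonical E-box at an intermediate rate. It was in 515 of 2563 members (20.1%) and in 816 of 3501 promoter peaks (23.3%), with an odds ratio of 0.827 by the exact test of Fisher (p = 0.00427 after adjustment over 3 comparisons). Among peaks outside the listed regions it was in 996 of 3448 (28.9%), which gave 0.619 (exact p = 1.84e-14 after the same adjustment). Among super-enhancer peaks it was in 40 of 292 (13.7%, 10.0 to 18.2%), which gave 1.58 (exact p = 0.00792, adjusted likewise). With the GC content of the window as a covariate the odds ratios were 0.837, 0.620 and 1.55. The difference from promoter peaks did not pass with peaks of at least 418 bp, the median width of N-Myc peaks, or within 50 bp of the centre, where the odds ratios were 0.930 and 0.931. The difference from super-enhancer peaks did not pass under these settings, or when members within 5 kb of a start site were left out, with or without the compared peaks there. Among 35116 promoter windows of the same length, taken from RefSeq genes on GRCh38.p14, the share with CACGTG was 5.52%.

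Over the 30 motifs examined, 16 were more frequent in members than in promoter peaks and 11 less frequent (exact test of Fisher, adjusted over the 30 by Benjamini and Hochberg). Of all 2080 6-mers, 38.5% were more frequent and 35.3% less frequent in the same comparison. The median GC content was 50.2% in members and 59.2% at promoter peaks, and its part in the motif differences was not tested. Several E-boxes other than CACGTG were among the 16 more frequent motifs. CAGATG was in 39.3% of members and 11.7% of promoter peaks (odds ratio 4.89), CACATG in 922 members and 11.9% of promoter peaks (odds ratio 4.14), CATATG in 9.64% and 1.54% (odds ratio 6.81), and CAGCTG in 24.0% and 12.1% (odds ratio 2.29). The corresponding shares of RefSeq promoter windows were 9.82%, 7.80%, 1.90% and 13.2%. CAAATG was also higher, in 13.9% of members and 5.97% of promoter peaks (odds ratio 2.53). So were CAACTG (odds ratio 1.36) and CAAGTG (odds ratio 1.31). None of these last hexamers was among the 5 that were higher in the peaks than in their downstream windows. Motifs of developmental factors were among the 16 too, some with odds ratios in the same range. The homeodomain motif TAATTA was in 8.86% of members and 1.97% of promoter peaks (odds ratio 4.83), TAATTG, a letter pattern met by LIM-homeodomain factors such as ISL1, in 13.5% and 3.91%, and the GATA motif AGATAA in 11.9% and 4.11% (odds ratio 3.15). The AP-1 motif TGANTCA was in 7.61% and 3.43%, the MEIS motif TGACAG in 16.9% and 9.43%, and the motif ACAAAG of SOX and TCF/LEF factors in 17.5% and 10.9%. TEAD, RUNX and nuclear receptor motifs were also higher, with odds ratios of 1.25, 1.47 and 1.25. The TFAP2 motif GCCNNNGGC went the other way and was among the 11 lower motifs. It was in 7.96% of members and 12.7% of promoter peaks (odds ratio 0.597).

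Among the 11 motifs that were less frequent in members were those of promoter factors. The ETS motif CCGGAAG was in 1.33% of members and 11.5% of promoter peaks (odds ratio 0.103), the NRF1 motif CGCATGCG in 0.195% and 2.29%, and the SP/KLF motif GGGCGG in 11.2% and 33.6% (odds ratio 0.250). The E2F motif TTCCCGC was in 1.76% and 6.40%, and the noncanonical E-box CACGCG in 5.89% and 16.5% (odds ratio 0.316). CACGCG was nevertheless in 146 of the paired peaks (5.80%) and 37 of their windows (1.47%). These 5 motifs contain CpG, and promoter peaks had the higher GC content. In RefSeq promoter windows GGGCGG stood at 39.8%, CCGGAAG at 8.65% and CACGCG at 8.61%.

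**Figure D3:**
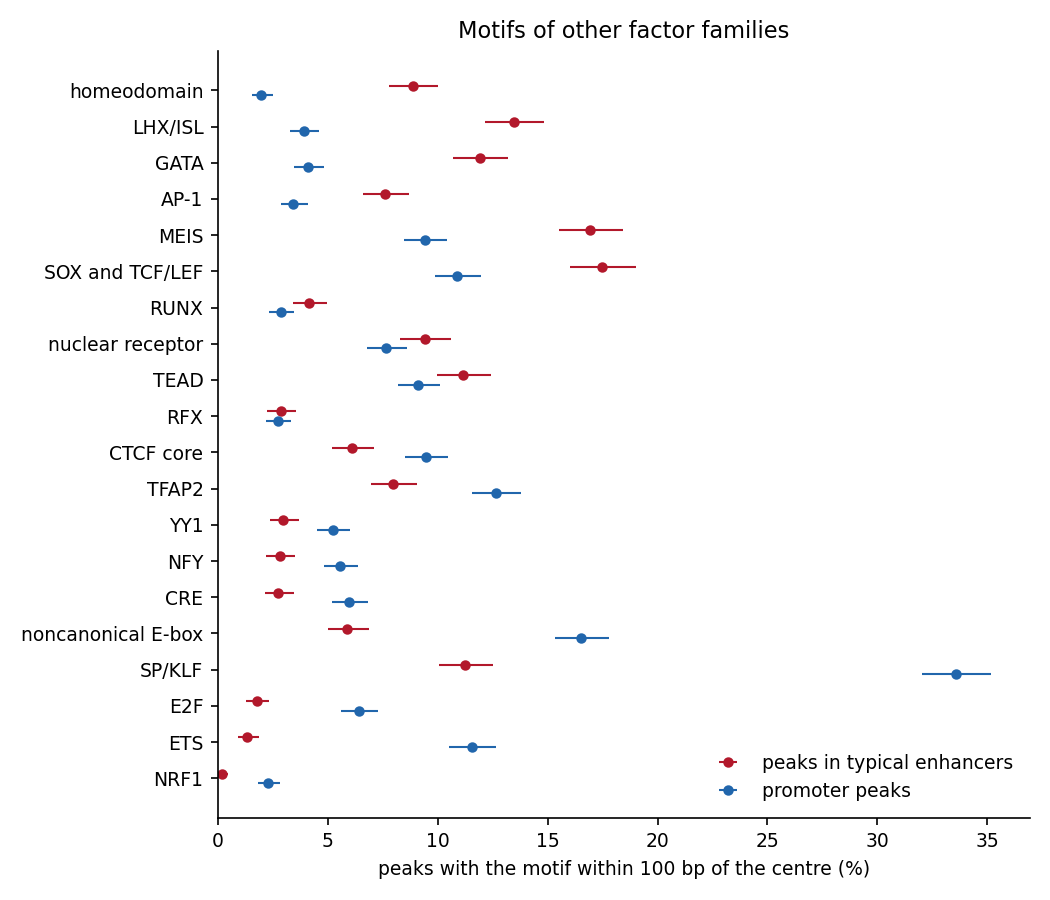
Share of peaks with a motif within 100 bp of the centre (horizontal axis, percent) for 20 motifs of other factor families, in the 2563 peaks in typical enhancers and in the 3501 promoter peaks, with exact 95% intervals, ordered by the ratio of both shares. Homeodomain, LIM-homeodomain and GATA motifs stand to the right in the enhancer peaks (13.5% against 3.91% for the LHX/ISL motif), and SP/KLF and ETS motifs in the promoter peaks (33.6% and 11.5%).

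Beside the peak the same motifs stood nearer to the level of the members. TAATTA was in 8.81% of the paired members and 5.95% of their downstream windows, TAATTG in 13.5% and 8.85%, and AGATAA in 12.0% and 11.2%. For the GATA motif the shares of peak and window were close. The exact McNemar test, adjusted over the 30 motifs, gave p = 0.000310 for TAATTA, 1.81e-07 for TAATTG and 0.427 for AGATAA.

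Few motifs passed against the other peaks away from promoters. Against super-enhancer peaks 0 of the 30 motifs passed (Fisher's exact test), while 5 had an unadjusted p under 0.05, namely CAAATG, then CACGTG, then CAGCTG, the ETS motif and ACAAAG. The canonical CACGTG, with an adjusted p of 0.00792 over 3 Fisher's exact tests, had 0.119 over these 30. With members, but not compared peaks, within 5 kb of a start site left out, 2 motifs passed. Against peaks outside the listed regions 7 passed, 3 of them higher in members: CAGATG (39.3% against 34.5%, odds ratio 1.23), CATATG (9.64% against 7.71%) and ACAAAG (17.5% against 14.3%). The 4 lower motifs were CACGTG, then CACATG (odds ratio 0.837), CACCTG (14.4% against 19.3%) and the CTCF core AGGGGGC (6.09% against 8.82%). With peaks of at least the median width 1 motif passed.

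A scan of all 2080 6-mers, each counted with its reverse complement, put E-boxes first. Against the downstream windows 553 6-mers were more frequent in members (26.6% of all; exact McNemar test, Benjamini-Hochberg adjustment over 2080) and 461 less frequent. CACGTG led, followed by CAGATG and then CACATG. The 6-mer ACGTGG, a shifted form of the canonical E-box, followed with 18.3% of peaks and 3.37% of windows. The palindrome CAGCTG, the shifted CGTGGC (13.1% and 3.02%), then GCTGCC (25.4% and 12.1%), the shifted ACGTGC (11.1% and 2.54%), next AGCATG (21.7% and 9.41%) and lastly GCAGCA (24.8% and 12.1%) completed the leading 10 of those that were higher. The leading 6-mers that were less frequent were rich in A and T, such as AAAAAT (16.2% of peaks and 36.4% of windows) and CAAAAA (11.4% and 28.3%). Among the 234 6-mers with a CpG and the same GC content as CACGTG, the ratio of pairs had a median of 1.51, and CACGTG with 12.8 was followed by ACGTGG with 7.16. With windows inside the same enhancer 159 6-mers were more frequent and 153 less frequent.

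Against promoter peaks 800 6-mers were more frequent in members (38.5% of all) and 734 less frequent (35.3%). The leading 6-mers of the first group were CAGATG, followed by CACATG, the shifted ACAGAT (21.9% and 6.88%), AGATGG and CATATG. After these came AGCATG and then AACAGA, with CAATTA, the reverse complement of the LHX/ISL pattern, next (13.5% and 3.91%), and after it ACATGG followed by ATGTGG. The leading depleted 6-mer was CCGCCC, in 11.2% of members and 33.6% of promoter peaks (odds ratio 0.250), with CGGAAG next at 4.21% and 21.8%. CGCCCC, followed by CCCGCC, by the ETS-like CCGGAA, by CCGCGC, by the 6-mer GGCGGA, by CTCCGC, by the repeat CGCCGC and by CCCGGA completed the 10, and their odds ratios ran from 0.148 to 0.274. Of the 734 depleted 6-mers 571 (77.8%) contained CpG, and none of the 800 did, against 604 of the 2080 tested.

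CpG islands mark many vertebrate promoters. A CpG-dense centre, here GC content of at least 55% and an observed to expected CpG ratio of at least 0.65, was found in 166 of 2563 members (6.48%, 5.55 to 7.50%) and in 1752 of 3501 promoter peaks. The odds ratio was 0.0691, and the p of the exact test was below 1e-300. Super-enhancer peaks stood at 16 of 292 (5.48%, odds ratio 1.19, exact p = 0.613 after adjustment) and peaks outside the listed regions at 163 of 3448 (4.73%, odds ratio 1.40, exact p = 0.00515). With members and compared peaks alike restricted to those at least 5 kb from a start site, the odds ratios were 0.965 and 0.957, neither past the threshold (exact p = 0.848 for each after adjustment). Of the 166 CpG-dense members, 83 lay within 1 kb of a start site and 38 at 1 to 5 kb.

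The label of these regions as distal did not hold for every peak. The rule excluded listed promoters only, and the GENCODE annotation holds more start sites than that list. The distance of the centre from the nearest annotated start site had a median of 10.1 kb and quartiles of 2.06 and 31.7 kb, with a maximum of 493 kb. A start site lay within 1 kb of 426 members (16.6%), and for 271 of them it belonged to a coding gene. A further 544 members (21.2%) lay at 1 to 5 kb, 704 at 5 to 20 kb, 706 at 20 to 100 kb and 183 farther away.

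The sequence changed with that distance. CACGTG was in 20.4% of the members within 1 kb of a start site, in 27.8% (24.0 to 31.7%) at 1 to 5 kb, in 19.5% at 5 to 20 kb, in 15.9% (13.2 to 18.8%) at 20 to 100 kb and in 15.3% beyond. CAGATG went the other way, from 28.9% (24.6 to 33.4%) within 1 kb to 44.5% (40.7 to 48.2%) at 5 to 20 kb and 43.7% beyond 100 kb. CACATG stood at 26.8% within 1 kb and at 51.4% (43.9 to 58.8%) beyond 100 kb. CpG-dense centres fell from 19.5% to 1.09% over the same bins. No trend test was planned, and the intervals of the nearest and farthest bins do not overlap for CAGATG, for CACATG or for the CpG-dense centre but do for CACGTG.

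**Figure D4:**
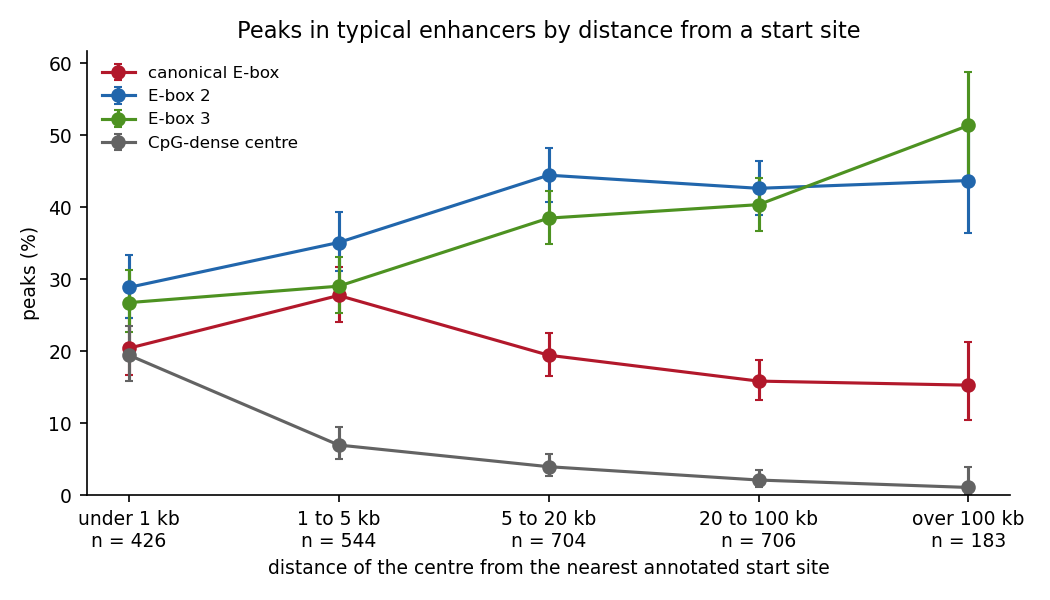
Share of the 2563 peaks (vertical axis, percent) with CACGTG (canonical E-box), CAGATG (E-box 2), CACATG (E-box 3) or a CpG-dense centre, by distance of the centre from the nearest annotated start site (horizontal axis, 5 bins with the number of peaks), with exact 95% intervals. E-box 3 rises from 26.8% to 51.4% across the bins while the CpG-dense centre falls from 19.5% to 1.09%.

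Width went with the E-boxes as well. In the narrowest quartile of members, from 197 to 373 bp, 23.5% held CACGTG and 42.0% held CAGATG within 100 bp of the centre. In the widest quartile, from 612 to 2078 bp, the shares were 12.8% (10.3 to 15.6%) and 30.7% (27.2 to 34.5%). The midpoint of a wide interval need not be the point of strongest binding, and the part this plays was not tested. Over the whole peak, CACGTG was found in 784 members (30.6%), and 109 of them held it more than once.

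Introns of coding genes held 1336 of the 2563 centres (52.1%, 50.2 to 54.1%). Another 164 lay in exons of coding genes, 44 of them in coding sequence and 78 in untranslated regions. Introns or exons of long non-coding genes held 294 and 70, and 699 (27.3%) were intergenic. The intronic share was lower than among super-enhancer peaks (64.4%, odds ratio 0.602, exact p = 7.08e-05 after adjustment) and higher than among peaks outside the listed regions (43.6%, odds ratio 1.41, exact p = 1.30e-10).

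Most enhancers held a single member. There were 1962 enhancers with 1 member, 231 with 2, 33 with 3, and 9 with more, up to 6. Enhancers with a member had a median length of 3.09 kb, with 2.63 kb for those with 1 member and 10.8 kb for those with several. The enhancer itself overlapped a listed promoter for 265 members (10.3%), although the peak did not. A total of 2093 members lay wholly inside the enhancer and 470 extended beyond it. JMJD6 was rarely near. Only 13 of the 2235 enhancers were also on the JMJD6 list, holding 15 members, and 13 members (0.507%, 0.270 to 0.866%) had a JMJD6 peak within 10 kb. The share within 10 kb was 0.971% for promoter peaks, 2.74% for super-enhancer peaks and 1.94% for peaks outside the listed regions. Absence of a shared JMJD6 peak was part of the rule, the JMJD6 list held 561 peaks in all, and the 2 antibodies were used with different cross-linking, so these shares are a description.

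The enhancer with the most members was on chromosome 11 (832420 to 891723, 59.3 kb), named for TSPAN4, a tetraspanin gene, and CHID1. It held 6 members, 5 of them with CACGTG. An enhancer with 5 members lay within GSE1 on chromosome 16 (40.7 kb), and 3 of the 5 held CACGTG. Of the 6 enhancers with 4 members, the order of the list put first those named for DNAJB12 and DDIT4 on chromosome 10, where none of the 4 held CACGTG, and for SSBP4 and ISYNA1 on chromosome 19, where 2 did.

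The member with the most canonical E-boxes lay in an intron of DNAAF5 (listed under its older name HEATR2), a gene for dynein arm assembly, at chr7:807108-808599. It held CACGTG in 14 places within 1492 bp, and neighbouring sites were 57 to 126 bp apart. Of the 13 gaps 7 were exactly 59 bp, and the first sequence above is a stretch of this array. Its centre was 0.257 kb from an annotated start site. How reads from so regular an array were mapped was not examined. The next member, at chr12:120755102-120755805 between PLA2G1B, a secreted phospholipase gene, and SIRT4, a mitochondrial sirtuin gene, held 4. The other 8 of the leading 10 held 3 each. Among them were members in introns of SPAG9, PIEZO1 (a mechanosensitive channel gene), TUB, FAM20C and a long non-coding gene between PSD2 and CXXC5, and in intergenic sequence near PIM1, a kinase gene, and near DUSP4, a MAP kinase phosphatase gene.

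The widest member, 2078 bp, lay in an intron of KCTD2 at chr17:73029694-73031771 and held CACGTG in 2 places. Also among the widest 5 were members in introns of RAI1 (1842 bp, no CACGTG) and PTPRF (1663 bp, 2 CACGTG and 8 CACATG), and near DUSP4 (1572 bp, 3 CACGTG). RAI1 encodes a chromatin regulator and PTPRF a receptor tyrosine phosphatase.

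The enhancer list names the nearest genes of each enhancer, and these are positions and not measured targets. Distances below are from the enhancer to the start site of the gene, as listed, unless another point is named. Through it, 2961 of 19222 autosomal coding genes (15.4%) were named for an enhancer with a member, and 6265 (32.6%) for any N-Myc-bound typical enhancer. The lists of genes below were chosen with earlier results of these data known and were not tested. Genes with long intergenic surroundings are named more often, and this was not taken into account.

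Of 23 adrenergic transcription factors, the regulators of the sympathetic identity of neuroblastoma cells, 15 (65.2%) were named for an enhancer with a member, with 33 members among them. For any N-Myc-bound typical enhancer 16 of the 23 (69.6%) were named. SOX11, a neural transcription factor gene, had 8 members in 8 enhancers, the nearest in its own untranslated region at chr2:5837804-5838011 with 1 CACGTG. These enhancers lay 1.19 to 953 kb from the gene. KLF13 had 2 members, the nearer one 27.3 kb from the gene with 2 CAGATG. SATB1, a genome organiser, had 3 members, DACH1 had 2 and PBX3 had 1, each nearest member lying in an intron of the gene with CACATG and no CACGTG. HAND2, GATA3, ISL1, PHOX2A, TBX2, MEIS2, ZNF536, EYA1 and HEY1 were among the others named. HAND2 was named for 4 super-enhancers and 1 member, and GATA3 for 1 super-enhancer and 2 members. Of 25 regulators of the mesenchymal state, the alternative identity of these tumours, 6 (24.0%) were named, with 8 members. They were TEAD1 with 3 members, ELK4, CREB3L2, MAML2, SOX9 and FN1. For any N-Myc-bound typical enhancer 8 of the 25 (32.0%) were named.

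Of 14 genes of catecholamine synthesis and vesicles, 8 (57.1%) were named, with 10 members. For any N-Myc-bound typical enhancer 9 of the 14 (64.3%) were named. CHGA, the gene for the granule protein chromogranin A, had 2 members, the nearer one at chr14:93383437-93384243 with CAGATG in 3 places. SLC6A2 had 1 member at 6.04 kb, in an intron, and SCG3, a secretogranin gene, had 1 that lay 13.4 kb away with 1 each of CACGTG, of CAGATG and of CACATG. TH had 1 member, 18.9 kb away, with 2 CACGTG. GCH1, whose enzyme makes the cofactor of tyrosine hydroxylase, had 2 in 1 enhancer. DBH, the gene for dopamine beta-hydroxylase, had none. Of 12 receptor tyrosine kinases and neurotrophin receptors 6 were named: EGFR with 3 members, ALK and IGF1R with 2 each, and NGFR, NTRK3 and FGFR1. For any N-Myc-bound typical enhancer 8 of these 12 receptor genes (66.7%) were named.

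Axon guidance and neuronal genes were named at similar rates. Of 34 axon guidance genes 21 (61.8%) were named, with 38 members, and 22 (64.7%) were named for any N-Myc-bound typical enhancer. EFNA5, an ephrin gene, had 6 members in 6 enhancers. NRP2, a semaphorin receptor gene, had 2, and the nearer lay 0.334 kb from an annotated start site with CACGTG in 2 places. The semaphorin genes SEMA3C, SEMA3A and SEMA6A had intronic members with CAGATG and no CACGTG. Of 26 neuronal genes 18 (69.2%) were named, with 39 members, and 20 (76.9%) were named for any N-Myc-bound typical enhancer. ELAVL3 and ELAVL2, genes for neuronal RNA-binding proteins, and TUBB3, a neuronal tubulin gene, each had 1 member with 1 CACGTG, 0.429, 0.584 and 2.46 kb from the gene. STMN2, a neuronal stathmin gene, also had 1 with CACGTG, at 1.92 kb, while TUBB2B had 3 members.

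Of 16 growth targets of MYC, with roles in ribosome biogenesis and metabolism, 12 were named for an N-Myc-bound typical enhancer, and 1, ODC1 for the first enzyme of polyamine synthesis, for an enhancer with a member, 100.4 kb from the gene with CAGATG in 4 places. With 15.4% of all coding genes named, a count of 1 among 16 is not set apart, and peaks at their promoters were excluded by the rule. Of 12 genes of the MYC, MAX and MXD network 6 were named with 1 member each: MYCN, MYC, MXD4, MNT, MGA and MLXIP. For any N-Myc-bound typical enhancer 10 of these 12 genes (83.3%) were named. Of the lists for other cell types, 0 of 12 liver genes were named, 2 of 12 lymphoid genes (CD2 and PTPRC) and 3 of 12 muscle genes (ACTA1, MYOG and CKM). The lymphoid and muscle shares stood above the 15.4% of all coding genes, the muscle share also above that of the mesenchymal regulators.

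**Figure D5:**
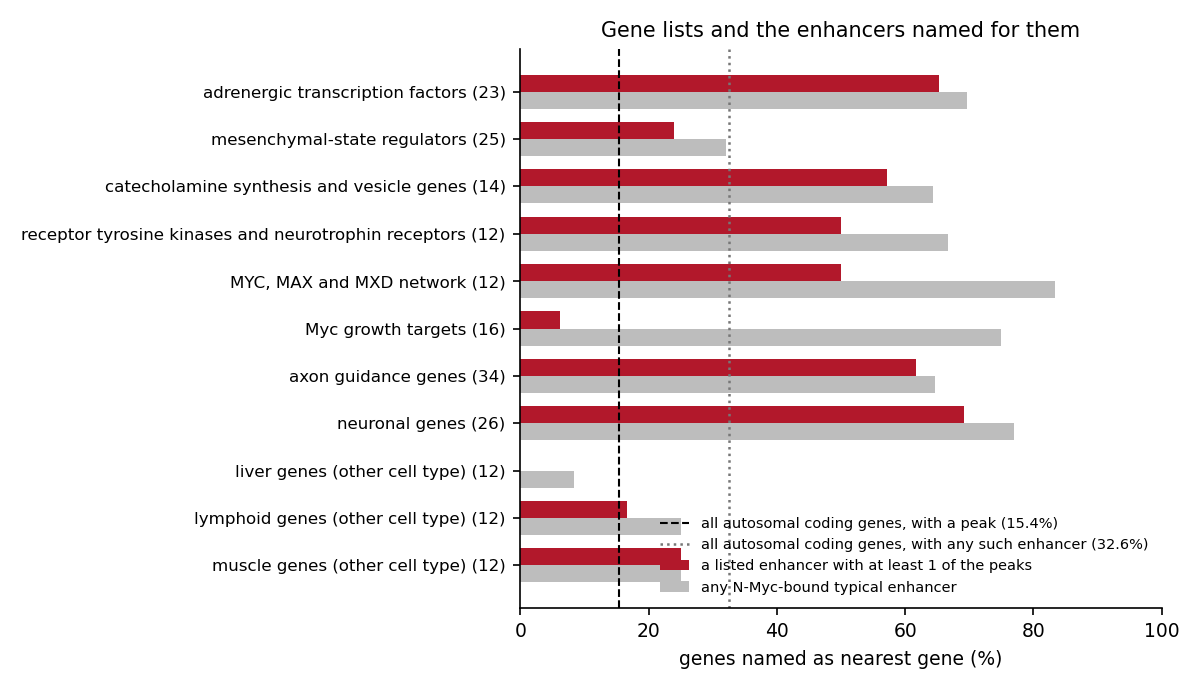
Share of the genes of each list (horizontal axis, percent; the number of autosomal coding genes in brackets) that are named as nearest gene of a typical enhancer with at least 1 of the peaks, and of any N-Myc-bound typical enhancer, with lines at the shares of all autosomal coding genes, 15.4% and 32.6%. Adrenergic transcription factors (65.2%) and neuronal genes (69.2%) stand far right of the line at 15.4%. For any N-Myc-bound typical enhancer their shares are 69.6% and 76.9%. Of the 16 Myc growth targets, 12 are named for an N-Myc-bound typical enhancer and 1 (6.25%) for an enhancer with a peak. That count is not set apart from 15.4%, and peaks at listed promoters were excluded by the rule.

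MYCN was named for 1 member, at chr2:16790005-16790587 in an intron of CYRIA, 709 kb from the MYCN start site. Between 14 and 18 Mb of chromosome 2, around the amplified gene, lay 2 members, while the whole chromosome held 0.802 members per Mb. MYC was named for 1 member in an intron of the long non-coding gene PVT1, 209 kb from its start site. MXRA7 was named for 1 member in its own intron at chr17:74693517-74694394, which is also the member nearest to JMJD6, 28.5 kb from the start site of JMJD6. JMJD6 and E2F2 were named for none, and the nearest member to E2F2 lay 510 kb away in KDM1A, a histone demethylase gene. None of these 4 peaks held CACGTG.

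Counted over coding genes, 1969 of the 2961 had 1 member and 80 had 5 or more. GSE1, MAML3 and SULF2 had 10 each, the most of any gene, in 6, 8 and 8 enhancers, and were singled out after their values were seen. Their enhancers were spread widely, at 19.5 to 532 kb from GSE1, 18.1 to 414 kb from MAML3 and 61.9 to 991 kb from SULF2. MAML3 encodes a Notch coactivator and SULF2 an extracellular heparan sulfatase.

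By chromosome, members per Mb ran from 0.540 on chromosome 21 to 2.18 on chromosome 17, which was followed by chromosome 19 with 1.44. The long arm of chromosome 17 is often gained in neuroblastoma. The part of copy number or gene density in these values was not tested. Chromosome 17 held 6.91% of the members and 7.75% of the other N-Myc-only peaks, and members made up between 19.7% (chromosome 19) and 32.2% (chromosome 18) of a chromosome's N-Myc-only peaks.

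At the edge of the rule, the 5 members with the smallest overlap met their enhancer over 11, 12, 13, 20 and 26 bp, among them peaks in introns of ATP8A1 and FRMD4A. The 5 nearest peaks that stayed outside lay 0 to 14 bp from an enhancer, among them peaks in TCP11L1, TSPAN18, RMND1 and CACNA2D1. Only 11 members overlapped by under 50 bp, and 6 of the peaks outside lay within 50 bp of an enhancer.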

How the data were processed

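Per the labels and the study's methods, the authors aligned reads to hg19 with BWA, called peaks against input with MACS2 2.1.1.20160309 at a q-value of at most 0.05, kept peaks common to all 3 replicates, defined promoters as 1 kb around RefSeq start sites, separated typical from super-enhancers with ROSE on H3K27ac, and named nearest genes with GREAT. The study reports a single H3K27ac experiment, so the calls of typical enhancers and super-enhancers had no replicate. The deposited lists hold positions, a pooled result with no value per replicate. They hold no read counts, so no depth per sample was computed.

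From these lists, motif matches on either strand of the GRCh37 sequence were counted within 100 bp of each peak centre and in a window 2 kb downstream. Positions were checked against the build: 4150 of 4712 listed promoters (88.1%) were centred within 100 bp of a GENCODE version 44 (lifted to GRCh37) start site of their symbol. Classes were compared with Fisher's exact test and peaks with their windows by the exact McNemar test, with Benjamini-Hochberg adjustment. Called means an adjusted p under 0.05. Both 6-mer scans were tested on simulated data with a 6-mer planted in 10% of windows, which was called and ranked first in 5 of 5 runs. The simulated bases were independent, with the same GC content in both compared sets. The real sets differ in GC and CpG content, so these runs cannot show how many real calls go with composition. Python 3.11.15, pandas 2.3.3, SciPy 1.17.1, statsmodels 0.14.6 and pysam 0.24.0 were used. Of 3010 gene symbols 98.4% matched a coding gene, and 42 members had no nearest gene. Peaks on sex chromosomes were left out.

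Named regions were the 10 members with the most CACGTG, the 5 widest, the 5 enhancers with the most members, the 5 nearest genes per list and the 5 on each side of the rule's edge. The members, lists and tests were chosen with earlier results of these data known. Alternatives covered the width, the window, its shift, clustered regions and distance from start sites. A few of the items chosen by these rules are not reported here.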

Additional observations from a re-analysis of the deposited data

How the results depend on the processing

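No paired analysis was possible because the lists are pooled over replicates and their columns carry no replicate, and for the same reason no replicate could be left out. In all 117 values were recomputed under 12 alternatives. Of these, 94 kept their direction and their side of the threshold, or for counts stayed within 1.5 times. The causes of the changes below were not tested. With peaks of at least 418 bp only, or with members at least 5 kb from a start site, 1593 members remained in each case. The second filter was applied to members alone and keeps compared peaks near start sites. The odds ratio of CACGTG against promoter peaks was 0.930 in wide peaks and 0.931 within 50 bp of the centre, neither past the threshold. Against super-enhancer peaks it was 1.32 in wide peaks, 1.55 within 50 bp and 1.33 at 5 kb or more, none past the threshold. The number of motifs passing against super-enhancer peaks was 2 at 5 kb or more, and against peaks outside the listed regions 1 in wide peaks. Of the motifs that differed between members with and without CACGTG, 1 passed in wide peaks and 2 each within 50 bp, without clustered regions and at 5 kb or more. The 6-mers higher than in the windows numbered 367 within 50 bp and 159 with windows inside the same enhancer, an alternative chosen after seeing the data. The odds ratio of a CpG-dense centre against super-enhancer peaks was 0.502 at 5 kb or more. Against peaks outside the listed regions it was 1.36 in wide peaks, 1.02 within 50 bp, 1.27 without clustered regions and 0.586 at 5 kb or more. With compared peaks also at 5 kb or more, an alternative chosen after seeing the data, these CpG odds ratios were 0.965 and 0.957 and that of CACGTG against super-enhancer peaks was 1.59, none past the threshold. The lists hold no scores and cannot show which peaks were near the authors' threshold.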

Other observations

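Spacing between E-boxes and neighbouring letters was counted over gaps of 0 to 15 bp, and the pairs below were picked out after their values were seen. CAGCTG followed by ATTA, the homeodomain core, occurred 16 times with a gap of 6 bp in the members, while the next most frequent gap had 6 and the median over gaps was 4. In the downstream windows no gap had more than 3. CATCTG followed by ATTA occurred 13 times at the same gap, with 9 at the next. CAGCTG followed by TTATC, the reverse complement of a GATA core, occurred 10 times with a gap of 7 bp, with 3 at the next gap. These counts were not tested.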
